A study of Homo sapiens with 4 samples.

Results

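The clustered protocadherin genes were analysed on the expression arrays of HML58-3 cells treated with DAC, OR-2003 or OR-2100. Members were the genes of the alpha (*PCDHA*), beta (*PCDHB*) and gamma (*PCDHGA*, *PCDHGB*) clusters and the C-type genes (*PCDHAC*, *PCDHGC*) to which a probe of the array could be assigned by its RefSeq accession. There were 46 of them among 25006 named genes, 15 in the alpha, 15 in the beta and 16 in the gamma cluster. They had 54 probes in all, and the probe with the highest mean signal over the 4 arrays stood for a gene. Of the 54 gene names that fit the rule in the gene table, 8 had no probe and were not analysed here, namely the pseudogene *PCDHA14* and *PCDHB3*, *PCDHGA1*, *PCDHGA4*, *PCDHGA6*, *PCDHGB5*, *PCDHGA10* and *PCDHGA11*.

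HML58-3 is a line derived from the colon cancer line HCT116 with a luciferase gene driven by a methylated marker promoter, made to detect demethylation. All groups were this line, grown in the same medium and collected on day 5. They were a mock group and 3 drug groups, whose medium was changed on day 1 to one with 1 μM of the drug, dissolved in DMSO. Values for the drugs are given in the order DAC, OR-2003, OR-2100 throughout. DAC (decitabine) is a nucleoside that is built into DNA and traps the DNA methyltransferases, so that methylation is lost as cells divide. OR-2003 and OR-2100 are DACs with a trialkylsilyl group on the 5′ oxygen, which carries methyl, methyl and n-propyl in OR-2003 and ethyl groups in OR-2100. The comparison asks whether these genes were higher after treatment, and whether the prodrugs and DAC differed. Each condition was 1 array, so that no difference has a replicate check and no test or p-value is given. All comparisons with mock share its 1 array.

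Clustered protocadherins are cell adhesion proteins of the cadherin superfamily. They are best known from neurons, where each cell turns on a few of them from alternative promoters and thereby marks its surface, so that branches of 1 cell avoid each other. In the alpha and gamma clusters, each variable exon encodes the outer part, the membrane span and a first stretch inside the cell, and is spliced to constant exons that all genes of the cluster share. Beta genes are single exons without a constant part. Promoter methylation and the binding of CTCF and cohesin at promoters and enhancers govern which promoters are used, and the clusters are often methylated over long stretches in tumours. The C-type genes lie at the ends of the alpha and gamma clusters and are regulated differently from the others in neurons.

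Most variable promoters hold a conserved element with the letters CGCT at its core, and stretches around it are shown because the clusters differ in the letters before this core. They were read from RefSeq promoter windows of GRCh38.p14, which run from 250 bases before to 50 bases after a gene's start, and 52 windows of 47 genes were matched by symbol. CGCT on the coding strand was in 51 of the 52 windows, against 54.3% of all 35116 windows in the table. The letters GGCGCT, part of the recognition sequence of CTCF, were on the coding strand of 13 of 14 beta windows, 0 of 13 alpha windows and 5 of 25 gamma windows, against 12.6% of all windows. On either strand, they were in 21.7% of all windows. In the 4 beta stretches below, the capitals mark GGCGCT. *PCDHB2* and *PCDHB16* are the beta genes with the highest mean difference from mock, *PCDHB13* had nearly the same level on all arrays, and *PCDHB7* was not above background on any.
PCDHB2 chr5:141094538-141094583, + strand: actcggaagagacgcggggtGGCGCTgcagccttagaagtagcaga
PCDHB16 chr5:141182304-141182349, + strand: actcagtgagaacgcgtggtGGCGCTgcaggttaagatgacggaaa
PCDHB13 chr5:141213859-141213904, + strand: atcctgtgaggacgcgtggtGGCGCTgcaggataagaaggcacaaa
PCDHB7 chr5:141172560-141172605, + strand: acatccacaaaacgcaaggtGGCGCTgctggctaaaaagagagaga

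All 13 beta windows with a match shared the longer run ggtGGCGCT. This run was read off from the same windows, so that their sharing it is given by the choice. It was in 176 windows of the table, or 0.501%, these 13 included. The beta window without a match was that of *PCDHB1*. The first base of the match lay 81 to 13 bases before the annotated start in 12 of the 13 windows, and at base 2 after it in that of *PCDHB8*. *PCDHB6* and *PCDHB11* had no window in the table.

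In the alpha windows the corresponding letters were GTCGCT, chosen for the search after the windows had been seen. They were on the coding strand in 11 of 13 alpha windows, 2 of 14 beta windows and 6 of 25 gamma windows, against 4.35% of all windows, and on either strand in 7.97% of all windows. They share the last 4 bases with GGCGCT and differ from it in the second, so that a site matches only one of the searches. The stretches show *PCDHA1*, which was higher with all drugs, *PCDHA7*, which was at a similar level on all arrays, and *PCDHA8*, which was not above background on any. For the gamma cluster they show *PCDHGA3*, which was higher with all drugs, and *PCDHGA2*, which was above background on all arrays. The capitals mark GTCGCT.
PCDHA1 chr5:140786080-140786125, + strand: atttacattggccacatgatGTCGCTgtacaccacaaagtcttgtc
PCDHA7 chr5:140834166-140834211, + strand: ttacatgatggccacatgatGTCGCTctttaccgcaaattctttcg
PCDHA8 chr5:140841124-140841169, + strand: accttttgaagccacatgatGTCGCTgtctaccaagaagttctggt
PCDHGA3 chr5:141343761-141343806, + strand: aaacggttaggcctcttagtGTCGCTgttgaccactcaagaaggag
PCDHGA2 chr5:141338697-141338742, + strand: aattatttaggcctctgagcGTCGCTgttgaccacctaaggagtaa

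The 10 windows of alpha genes other than C-type that held GTCGCT shared the run tGTCGCT, found in 1.76% of all windows. The 6 gamma windows shared GTCGCTgtt, found in 0.154%. Both runs were read off from these windows, which are among those counted, so that the sharing is given by the choice. A second part of the CTCF sequence, AGNNGGC, in which N is any base, was on the coding strand of 8 beta, 1 alpha and 4 gamma windows, against 43.7% of all windows, and on either strand in 64.2%. The windows were poor in CpG. The median number of CpG in the 300 bases was 7 in the alpha, 7.5 in the beta and 10 in the gamma windows, against 14 in all windows. C-type windows held more, with a median of 23. A match of letters is a description of the window and no evidence of binding, and the methylation of these promoters was not analysed here.

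Values below are levels, the log2 intensity of a probe on a scale where 0 is the 75th percentile over an array's gene probes. The study takes a level of -1 or more as positive expression. Each member probe had 1 spot on each array, and none of these spots was marked as an outlier. A probe was called well above background where the scanner software marked it so, and the lowest level at which it did was between -4.55 and -4.29 over the 4 arrays. Between 31601 and 33282 of the 58201 gene probes of an array passed. Repeated spots of 1 probe had a median SD of 0.059 to 0.067 among bright probes and of 0.25 to 0.60 among dim ones, which covers spots and not cultures. Over all named genes, the median log2 difference from mock was -0.12 with DAC, -0.09 with OR-2003 and -0.23 with OR-2100. It was 0.11, 0.20 and 0.03 where the percentile was taken over probes well above background, so that a difference of this size can change sign with the scaling.

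On the mock array most clustered protocadherins were dim. Well above background there were 13 of the 46 members, or 28.3%, against 67.8% of all named genes. These were 4 of 15 alpha, 5 of 15 beta and 4 of 16 gamma genes. With drugs, the number was 26 with DAC, 25 with OR-2003 and 26 with OR-2100, and the shares of all named genes were 72.2%, 73.4% and 72.3%. All 13 members detected on the mock array were also detected with each drug. Of the 16965 named genes detected on the mock array, 706, 581 and 771 were lost with a drug and 386 with all 3. These are 2.82%, 2.32%, 3.08% and 1.54% of all named genes. At such shares, the absence of a loss among 13 members says little. Another 10 members were detected with all 3 drugs and not on the mock array, 5 with 1 or 2 of the drugs, and 18 on none of the arrays.

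A gene was called switched on where it was well above background with a drug and not on the mock array, a rule chosen after seeing the data. DAC switched on 13 members (28.3%), OR-2003 12 (26.1%) and OR-2100 13 (28.3%), against 7.2%, 7.87% and 7.59% of all named genes. All 3 drugs together switched on 10 members, against 6.28% of all named genes. Since more members than other genes were dim on the mock array, the share among dim genes is the closer comparison. Of the 33 members that were dim on mock, 10 or 30.3% were switched on by all 3 drugs, against 19.5% of the 8041 such named genes. By cluster, these were 2 of 11 alpha, 4 of 10 beta and 4 of 12 gamma genes. For single drugs, 13, 12 and 13 of the 33 were switched on, against 22.4%, 24.5% and 23.6% of such named genes. An array of a cell population does not tell apart more cells with the RNA and more RNA per cell.

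By the rule of the study, an induced gene had a level of -1 or more with the drug, and its signal was 2-fold that of mock or higher. Each drug induced 2 of the 46 members (4.35%), the beta genes *PCDHB2* and *PCDHB11*, against 5.77%, 5.89% and 5.81% of all named genes, and 5.27% for all 3 drugs together. This count depended on the scaling. With each array's median set to 0, which lets dimmer probes reach the level of -1, 14, 13 and 15 members were induced (30.4%, 28.3% and 32.6%), against 11.6%, 11.2% and 11.8% of all named genes. With the percentile of probes well above background, 0 members were induced, against 4.04%, 4.59% and 4.15%. No member was reduced by the mirrored rule, against 5.96%, 6.05% and 6.82% of all named genes and 5.21% with all 3 drugs. Only 6 of the 46 members had the mock level of -1 or more that this rule needs, so that 0 says little about the members. Since most members stayed under the level of -1, a second call was added after seeing the data. It is named raised, and needs a 2-fold higher signal and a probe well above background with the drug, whatever its level. Where the mock value was dim, only a lower bound of the fold is given. It was computed against the probe's own mock signal or, where higher, the dimmest signal that the software still marked as well above background on that array. By this call 9, 9 and 10 members were raised, against 10.3%, 10.5% and 10.2% of all named genes. The same 9 members were raised by all 3 drugs (19.6% of the members), against 9.23% of all named genes. They were 1 alpha, 6 beta and 2 gamma genes. Of these, only *PCDHB11* and *PCDHB8* were detected on mock. On mock, 28.3% of the members and 67.8% of all named genes were detected, so that the shares of raised genes have unlike bases. With normexp background correction, which compresses dim signals, only *PCDHB2* and *PCDHB11* were raised by all 3 drugs, and with a 4-fold threshold 5 members were. No member was lowered by the mirrored call, against 7.94%, 7.82% and 9.47% of all named genes and 6.39% with all 3 drugs. This call needs detection on mock, which 28.3% of the members and 67.8% of all named genes had, so that these shares have unlike bases.

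**Figure D1:**
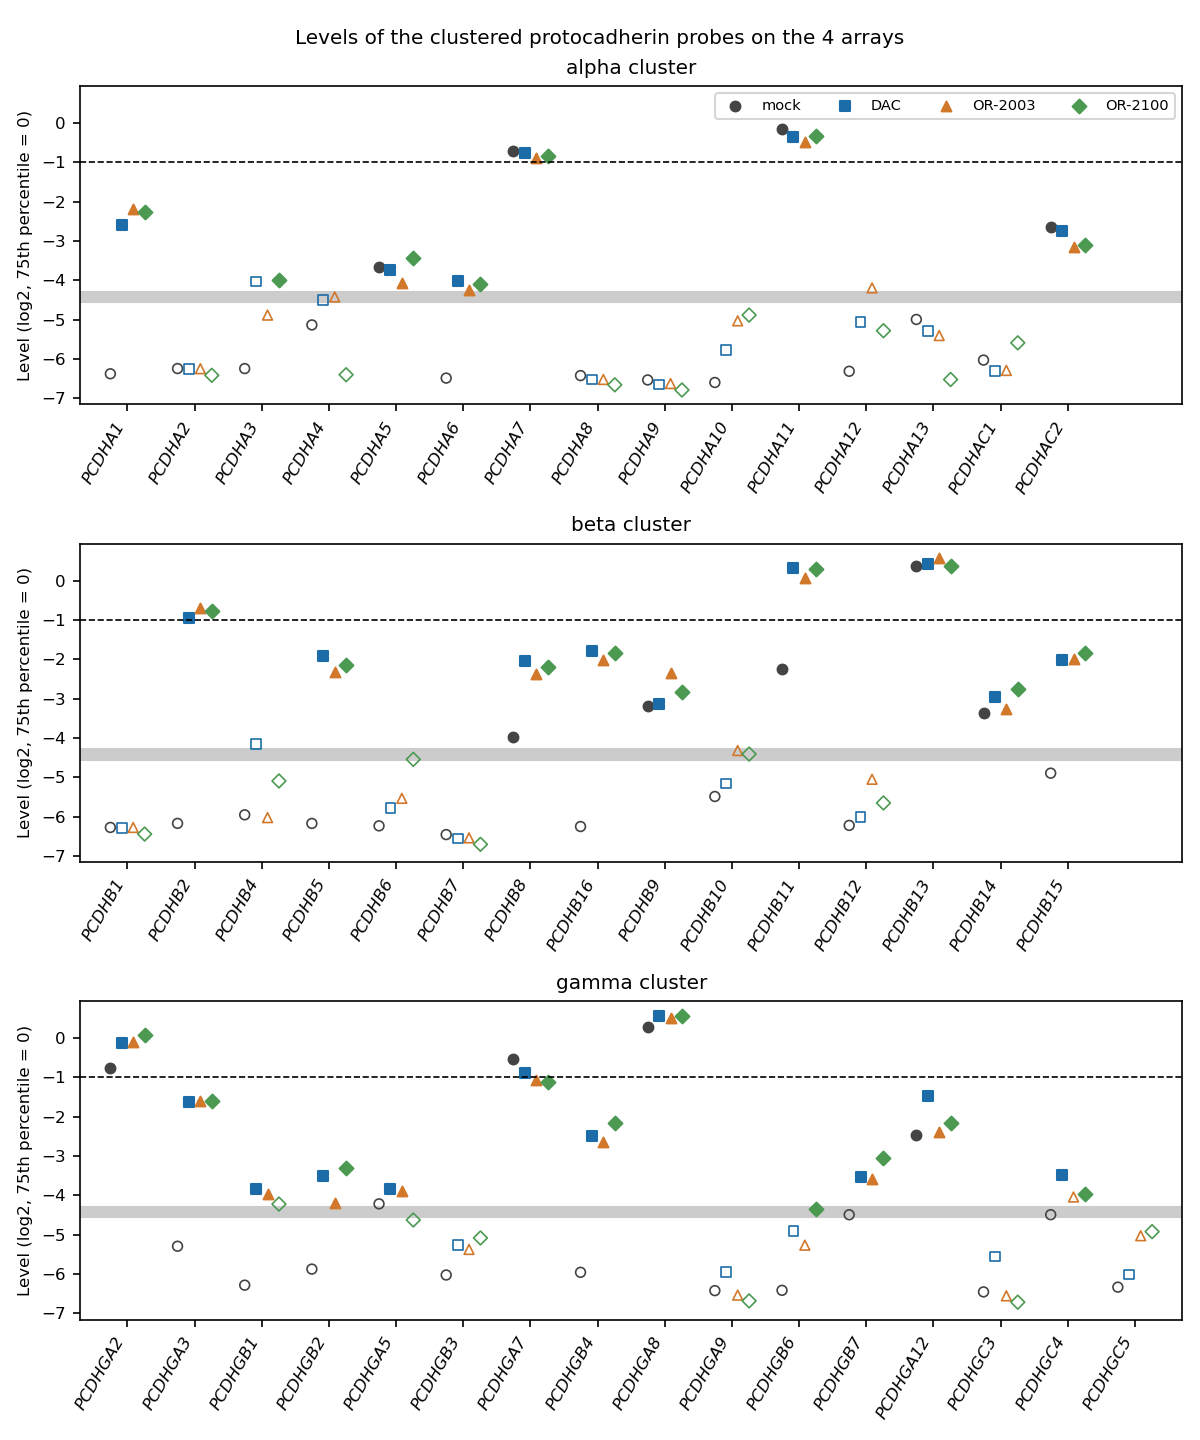
Levels (log2, 75th percentile of gene probes set to 0) of the probes of the alpha, beta and gamma genes, in the order of the genes along chromosome 5, on the mock, DAC, OR-2003 and OR-2100 arrays. Filled symbols are well above background and open symbols are not, the grey band spans the lowest levels that were (-4.55 to -4.29), and the dashed line is the level of -1. Of the beta genes, 4 go from open on mock to filled with all drugs, and of the alpha genes most are open on every array.

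The beta cluster held most of the raised genes, 6 of 15 with each drug. Its median log2 difference from mock was 0.45, 1.17 and 1.08, with probes under background included. With levels under -4.29, the highest background limit of the arrays, set to that limit, the medians were 0.14, 0.20 and 0.34, against 0 over all named genes. This floor goes by level, so that some probes not marked as well above background stay over it. *PCDHB4* on the DAC array, at -4.15, is an example.

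*PCDHB2* had the highest mean difference of all beta genes. Its level was -6.17 on the mock array, not above background, and -0.95, -0.70 and -0.77 with the drugs. This is at least 10.1, 12.0 and 11.4-fold higher. The values on the drug arrays lie closer to each other than to the mock value, which is under background. These arrays are of different drugs and are not replicates. A second probe of the gene gave -6.22 on mock and -1.02, -1.12 and -1.02 with drugs, which repeats the difference but falls just short of the level of positive expression, so that the gene counts as induced by 1 of its probes.

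*PCDHB11* was above background on all 4 arrays and has a fold in place of a bound. Its level was -2.25 on mock and 0.32, 0.07 and 0.30 with the drugs, or 5.95, 4.98 and 5.87-fold higher. It was the only member that went from under to over the level of positive expression while detected on mock. *PCDHB8*, also detected on all arrays, was at -3.97 on mock and at -2.03, -2.37 and -2.21 with drugs, or 3.83, 3.04 and 3.40-fold higher.

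Like *PCDHB2*, *PCDHB16*, *PCDHB5* and *PCDHB15* were dim on the mock array and bright on all drug arrays. *PCDHB16* was at -6.25 on mock and at -1.79, -2.02 and -1.84 with drugs, at least 5.65, 4.82 and 5.43-fold higher. *PCDHB5* was at -6.17 and at -1.92, -2.33 and -2.15, at least 5.16, 3.87 and 4.40-fold higher. In *PCDHB15* the mock value was -4.90 and the drug values -2.03, -1.99 and -1.84, at least 4.77, 4.91 and 5.45-fold higher. That every drug value lay above the mock value is already required by the raised call. Single values have no spread, so that an overlap could not be tested.

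The other beta genes detected on every array, *PCDHB9*, *PCDHB14* and *PCDHB13*, were not raised. *PCDHB13* already had positive expression on mock, at 0.36, and was at 0.43, 0.56 and 0.37 with drugs. *PCDHB14* was at -3.36 on mock and at -2.95, -3.26 and -2.75 with drugs, 1.33, 1.07 and 1.52-fold of mock. For *PCDHB9* the mock level was -3.18 and the drug levels -3.14, -2.35 and -2.84, so that the OR-2003 array stood apart from the others. The remaining 6, *PCDHB1*, *PCDHB4*, *PCDHB6*, *PCDHB7*, *PCDHB10* and *PCDHB12*, were not above background on any array.

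Raised and dim beta genes lie side by side, as in the order *PCDHB4*, *PCDHB5*, *PCDHB6*, *PCDHB7*, *PCDHB8*, *PCDHB16*, of which *PCDHB5*, *PCDHB8* and *PCDHB16* were raised and the others were dim on all arrays. The promoter letters were found in both kinds. Of the 12 beta genes on the array whose window held GGCGCT, 5 were raised by all 3 drugs, 8 were detected with all 3 and 4 were not. The shared letters are thus printed above for *PCDHB7* as for *PCDHB2*.

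The gamma cluster had the most genes that came above background, 7, 6 and 6 with the drugs, but few of them passed a 2-fold bound. Its median log2 difference was 0.92, 0.66 and 0.89, or 0.41, 0.17 and 0.18 with levels under the limit of -4.29 set to it. Raised were 2 of 16 genes with DAC and with OR-2003 and 3 with OR-2100. With the percentile of probes well above background 5, 2 and 5 were raised, and with normexp background correction 0 with each drug.

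*PCDHGA3* was at -5.29 on mock and at -1.63, -1.60 and -1.60, at least 6.30, 6.42 and 6.42-fold higher. The values on the 3 drug arrays lie within less than the SD of repeated bright spots. *PCDHGB4* was at -5.96 on mock and at -2.48, -2.65 and -2.16 with drugs, at least 3.48, 3.10 and 4.37-fold higher. *PCDHGB7* reached 2-fold with OR-2100 alone. It was at -4.49 on mock and at -3.54, -3.58 and -3.04 with drugs, at least 1.68, 1.63 and 2.37-fold higher, and its second probe gave -4.62 on mock and -3.84, -3.78 and -3.52 with drugs.

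Smaller bounds were found for gamma genes near the background limit. *PCDHGB2* was at -5.87 on mock and at -3.51, -4.18 and -3.31 with drugs, at least 1.72, 1.08 and 1.97-fold higher. *PCDHGB1* was detected with DAC and OR-2003, at -3.85 and -3.97, and not on mock or with OR-2100, and its second probe was not above background on any array. *PCDHGB6* was detected with OR-2100 only, at -4.33, where its signal was under the limit of the mock array once scaled, so that no fold is given. *PCDHGA5* has 2 probes that differ. The probe chosen was at -4.21 on mock and at -3.84, -3.88 and -4.62 with drugs, and the other was at -6.39 on mock and at -3.38, -3.90 and -3.47, well above background with all drugs.

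Gamma genes already detected on mock changed less. *PCDHGA8* was at 0.28 on mock and at 0.56, 0.52 and 0.57 with drugs, 1.21, 1.18 and 1.22-fold of mock, and its second probe was not above background on any array. *PCDHGA2* was at -0.76 and at -0.14, -0.10 and 0.07 with drugs, 1.54, 1.58 and 1.78-fold of mock. *PCDHGA7* was the only gamma gene lower with each drug, at -0.53 on mock and -0.88, -1.06 and -1.11 with drugs, or 0.78, 0.69 and 0.67-fold of mock. Its second probe went the other way, from -3.20 to -2.75, -3.05 and -3.08, so that the direction of the gene is not settled by these probes.

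The alpha cluster changed least. Its median log2 difference was -0.05, -0.09 and -0.13, near that of all named genes, and turned to 0.17, 0.20 and 0.12 with the percentile of probes well above background. With levels under the limit of -4.29 set to it, its medians were 0. With quantile normalization the median with OR-2100 was 0.13.

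*PCDHA1*, the first gene of the cluster, was the 1 alpha gene raised. It was at -6.38 on mock and at -2.60, -2.19 and -2.26 with drugs, at least 3.21, 4.26 and 4.07-fold higher. *PCDHA6* also came above background with each drug, at -4.00, -4.24 and -4.08 against -6.48 on mock, but its bounds were 1.22, 1.03 and 1.15-fold. *PCDHA3* did so with OR-2100 alone, at -3.99.

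Of the 4 alpha genes already detected on mock, none was raised or lowered. *PCDHA11* was at -0.16 on mock and at -0.36, -0.49 and -0.33 with drugs, and *PCDHA7* at -0.71 and at -0.76, -0.89 and -0.84. Both mean differences, -0.24 and -0.12, turned to 0.02 and 0.14 with the percentile of probes well above background. *PCDHA5* was at -3.65 on mock and at -3.73, -4.06 and -3.43 with drugs, which lie on both sides of the mock value. *PCDHAC2* is given with the C-type genes. The other 8 alpha genes, *PCDHA2*, *PCDHA4*, *PCDHA8*, *PCDHA9*, *PCDHA10*, *PCDHA12*, *PCDHA13* and *PCDHAC1*, were not above background on any array. The windows of *PCDHA1*, *PCDHA7* and *PCDHA8* held the same letters GTCGCT. Of the 11 alpha genes on the array with these letters, 5 were detected with all 3 drugs and 6 were not.

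Of the 5 C-type genes, *PCDHAC1*, *PCDHGC3* and *PCDHGC5* were not above background on any array. *PCDHAC2* was above it on all, at -2.63 on mock and at -2.74, -3.15 and -3.10 with drugs, or 0.93, 0.70 and 0.72-fold of mock. *PCDHGC4* was at -4.49 on mock and at -3.47, -4.04 and -3.97, above background with DAC and OR-2100 only, and its second probe was not above background on any array. No C-type gene was raised.

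Values of single alpha and gamma genes depend on where a probe lies, since a probe in the constant exons would read all genes of a cluster. The position of the probes in the transcripts was not analysed here. Probes of 1 gene can read different transcripts. *PCDHA11* is an example, since the probe assigned to the first of its RefSeq transcripts, NM_018902, gave the levels above, and that assigned to NM_031861 was not above background on any array. Beta genes resemble one another in sequence, and signal shared between them was not tested.

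**Figure D2:**
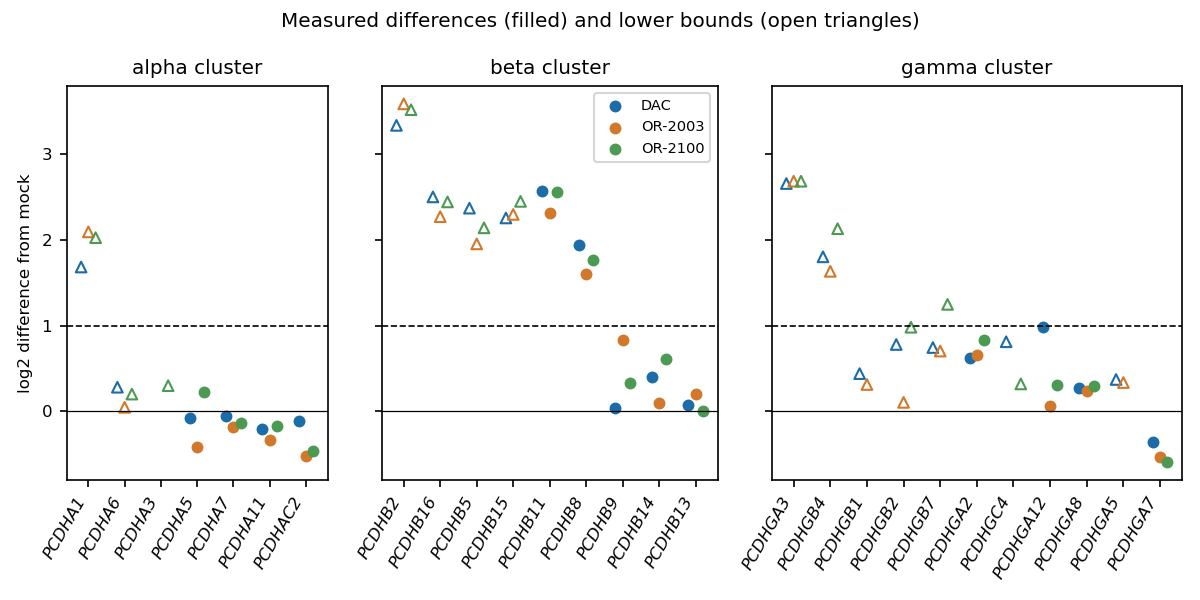
Log2 differences from mock (y axis) of the 27 members with a fold or a bound, by cluster and in the order of their mean difference. Filled circles are measured differences where mock was above background, open triangles are lower bounds where it was not, colours are the drugs, and the dashed line marks 2-fold. Beta genes fill most of the area over the line, most gamma genes lie between it and 0, and the alpha genes other than *PCDHA1* lie under the line, on both sides of 0.

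To compare the drugs with each other without the mock array, the 23 members above background with all 3 drugs were used. The drugs were given at the same dose and for the same time, and 3 pairs were compared. No member was 2-fold apart in any pair, against 0.0798% of 17547 named genes for the pair of DAC with OR-2003, 0.137% for DAC with OR-2100 and 0.285% for the prodrugs. The median absolute log2 difference was 0.23, 0.20 and 0.17 in this order, against 0.082, 0.11 and 0.11 over all these genes. Some of the 23, such as *PCDHA6* and *PCDHGB2*, lie near the background limit, and repeated dim spots had a larger SD than bright ones. No comparison with genes of like level was made, so that these medians do not set the members apart. With 1 array a drug, an interval of these differences cannot be given, and equal action is not shown.

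The largest difference in each pair was in a gene that was not raised by all 3 drugs. *PCDHGA12*, singled out after its values were seen, was at -2.46 on mock, -1.47 with DAC, -2.39 with OR-2003 and -2.15 with OR-2100, so that DAC was higher than OR-2003 by 0.92 and than OR-2100 by 0.68 on the log2 scale. Its DAC value was 1.98-fold of mock, just under the threshold of a raised gene. *PCDHB9* was higher with OR-2003 than with DAC, the difference of DAC minus OR-2003 being -0.79. *PCDHGB2* was lower with OR-2003 than with OR-2100, with a difference of -0.88. Among the 9 genes raised by all 3 drugs, the absolute differences between drugs were at most 0.03 for *PCDHGA3*, 0.25 for *PCDHB2*, 0.26 for *PCDHB11*, 0.41 for *PCDHA1* and 0.42 for *PCDHB5*. The largest was that of *PCDHGB4*, at -0.50 for OR-2003 minus OR-2100. That no member was 2-fold apart between OR-2003 and OR-2100 does not set the members apart, since only 0.285% of the 17547 named genes were. An effect of the silyl groups was not tested.

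Genes around the clusters were described from the order in the gene table. The 10 named genes before the clusters had a median log2 difference of -0.45, -0.41 and -0.51, and the 10 after them of -0.40, -0.37 and -0.38. None before was raised, and 1, *VTRNA1-2*, was lowered, with DAC only, at 0.47, 0.59 and 0.69-fold of mock. *VTRNA1-1*, a vault RNA gene, was detected on mock only, and *DND1*, which encodes an RNA-binding protein of germ cells, had the highest difference there, at 0.52, 0.50 and 0.46. After the clusters, *RELL2*, a relative of the TNF receptor family member RELT, was raised by 2 of the drugs, at 1.98, 2.27 and 2.42-fold of mock. Of all named genes, 10.3%, 10.5% and 10.2% were raised and 7.94%, 7.82% and 9.47% lowered, so that such counts among 10 genes say little.

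Of the 7 genes within and between the clusters, *TAF7*, which encodes a subunit of the general transcription factor TFIID, lies between the beta and gamma clusters and differed from mock by 0.08, 0.05 and 0.05. *SLC25A2*, a mitochondrial ornithine carrier gene beside it, was detected on mock at -3.70 and not with the drugs. The pseudogene *PCDHB18P* was switched on, at -6.32 on mock and at -3.75, -3.22 and -3.36 with drugs, at least 1.45, 2.10 and 1.89-fold higher. The other 4, among them *PCDHB17P* and *PCDHB19P*, were not above background on any array.

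Protocadherins outside the clusters, of which 14 of 14 listed were measured, went from 4 detected on mock to 8, 9 and 8 with drugs. Of them 3, 2 and 4 were raised, against 10.3%, 10.5% and 10.2% of all named genes. *PCDH7*, detected on all arrays, was at -1.99 on mock and at 0.71, 0.73 and 0.76 with drugs, 6.50, 6.57 and 6.71-fold higher, and was the 1 gene of this list that was induced. *PCDH8* was at -6.37 on mock and at -3.07, -3.15 and -3.03, at least 2.32, 2.20 and 2.38-fold higher. *PCDH20* was at -6.23 and at -2.87, -3.44 and -2.71 with drugs, at least 2.67, 1.80 and 2.99-fold higher. *PCDH1*, a bright gene of this list, differed by -0.52, -0.48 and -0.66. The list median was 0.40, 0.49 and 0.38.

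All 17 listed regulators of the clusters were detected on every array, and 0 were raised or lowered. Of all named genes, 10.3%, 10.5% and 10.2% were raised and 7.94%, 7.82% and 9.47% lowered, so that 0 of 17 says little. Their median log2 difference was -0.30, -0.28 and -0.39. *STAG2*, a cohesin subunit, had the lowest values, -0.84, -0.95 and -0.83, followed by *SETDB1*, a histone H3K9 methyltransferase, at -0.70, -0.71 and -0.74. *LRIF1*, whose product binds SMCHD1 on silent chromatin, had the highest, 0.68, 0.57 and 0.46, followed by *DNMT3A*, a de novo DNA methyltransferase, at 0.19, 0.12 and 0.23. *CTCF* itself differed by -0.44, -0.37 and -0.53. These are differences in RNA only.

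The 11 listed partners of protocadherins inside the cell were detected on every array as well. Of them 0, 1 and 2 were lowered, against 7.94%, 7.82% and 9.47% of all named genes. *BRK1*, a subunit of the WAVE complex that drives actin branching, differed by -0.93, -0.98 and -1.09, and the kinase gene *PTK2B* by -0.84 to -1.02. The highest were *AXIN1*, a scaffold of the beta-catenin destruction complex, at 0.24, 0.30 and 0.38, and *PDCD10*, whose product binds gamma protocadherins, at 0.25, 0.23 and 0.21. The list median was -0.39, -0.34 and -0.35.

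Markers of the labelled cell type and of others were measured beside the members. Of 8 colon epithelium markers, 7 were detected on mock and 8 with each drug. The epithelial adhesion genes *EPCAM* and *CDH1* were lower, with differences of -1.49, -1.52 and -1.46 and of -1.09, -1.18 and -1.25, and *VIL1* and *LGALS4* had the highest differences of this list. Of 8 neuron markers, 4 were detected on mock and 6 with each drug. The neurofilament genes *NEFM* and *NEFL* were raised, by bounds of 10.3 to 12.3-fold and of 3.27 to 3.87-fold, and *SYP* and *ELAVL4* were not above background on any array. *RBFOX3*, which encodes the neuronal nuclear protein NeuN, was detected on every array, at 1.75 on mock and at 1.74, 1.96 and 2.07 with drugs, as was the tubulin gene *TUBB3*, at 5.84 and at 6.28, 6.55 and 6.23. *MAP2* was lower, with differences of -1.30, -1.36 and -1.50, and *SNAP25* differed by -0.09, -0.52 and -0.20.

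Of 6 fibroblast markers, 2 were detected on mock and 4 with each drug. *DCN* was at least 6.63, 7.26 and 6.60-fold higher, *COL1A2* at least 1.56, 2.01 and 1.79-fold, and *COL3A1* and *LUM* were not above background on any array. *PDGFRB* differed by -0.63, -0.29 and -1.08 and *COL1A1* by 0.83, 0.77 and 0.90. Of the leukocyte markers, *PTPRC* was detected on all arrays and differed by -0.31, -0.27 and -0.16, and *CD3E* was detected only with OR-2100. The levels of a list summed on a linear scale, where 1 is the 75th percentile of an array, on mock and with the drugs, came to 1306, 1685, 1616 and 1588 for the colon list, 65.3, 84.0, 100.2 and 82.2 for the neuron list and 2.22, 4.08, 4.03 and 4.25 for the fibroblast list. The part of other cell types in the values of the clustered genes was not tested.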

How the data were processed

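RNA of 4 cultures was measured on 4 one-colour Agilent arrays, 1 for each condition, on 1 slide in 1 scan run. The values deposited by the authors are spot intensities from Feature Extraction 12.1.0.3, background-corrected within an array and not normalized between arrays, with the software's marks for background and outliers. A deposited series table holds the same values. Without outlier spots, the log2 intensity was averaged over the spots of a probe and shifted so that 0 is the 75th percentile over the array's 58201 gene probes. A probe with several spots was taken as well above background where more than 0.5 of them were. The array design was made on hg19, and 34892 probes were named by accession through a RefSeq gene table of GRCh38.p14, so that no coordinates of probes are given.

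Members, lists and settings were chosen with earlier results of these data known. Named are all C-type genes and, in each cluster, the 6 highest and 3 lowest mean differences among genes detected on 1 or more arrays and the 3 highest levels on mock, and in each other list the 2 highest and 2 lowest. The raised and switched-on calls and some promoter letters were added after seeing the data. Alternatives were normexp (offset 50, run on the median spot intensity), the percentile of bright probes, median and quantile scaling, the mean of probes, a floor, dim probes left out, a 4-fold threshold, no level threshold and the series table. A planned comparison of shared protein ends was not run. Python 3.11.15, numpy 2.4.6, pandas 2.3.3, matplotlib 3.10.9, R 4.3.3 and limma 3.58.1 were used. The leukocyte list is not reported here in full.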

Additional observations from a re-analysis of the deposited data

How the results depend on the processing

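No array could be left out, since each stood alone for its condition. No paired analysis was possible because there were no replicates. The median log2 difference and the numbers of induced, reduced and raised genes of the 3 clusters with the 3 drugs stayed within the tolerance for all 36 values under quantile normalization, averaging all probes of a gene and the series table, which holds the same signals. The tolerance was 1.5 times for a count and, for a median, the SD of a difference between repeated dim spots, 0.44 to 0.65. That SD is of single spots, from 16, 7, 7 and 6 dim probes on the mock, DAC, OR-2003 and OR-2100 arrays. This tolerance is wide for a median of 15 or 16 genes, and a median within it can still have shrunk. Values outside it are given by setting, in the order DAC, OR-2003, OR-2100 where 3 are given, and the cause was not tested unless the setting itself gives it.

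With normexp background correction, which adds a constant and so shrinks differences of dim probes, raised genes numbered 0, 0 and 0 in the alpha, 2, 2 and 2 in the beta and 0, 0 and 0 in the gamma cluster. *PCDHB2* and *PCDHB11* remained, at log2 differences of 1.08, 1.21 and 1.13 and of 1.39, 1.21 and 1.41. Beta medians were 0.11 with OR-2003 and 0.081 with OR-2100, and gamma medians 0.022 with DAC and 0.074 with OR-2100. Within the tolerance, the beta median with DAC fell from 0.45 to 0.067 and the gamma median with OR-2003 from 0.66 to 0.035. The lower bounds above thus rest on the scanner's own background correction. Levels under -4.29, the highest background limit of the arrays, were also set to that limit. The 4 medians outside the tolerance were then 0.20, 0.34, 0.41 and 0.18, in the same order. With only probes well above background on all arrays, raised genes numbered 0, 0 and 0, 2, 2 and 2, and 0, 0 and 0 in the alpha, beta and gamma clusters, namely *PCDHB11* and *PCDHB8*, induced beta genes 1, 1 and 1, and the gamma median with DAC was 0.45.

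Scaling moved the genes near the level of -1. With the percentile of probes well above background, induced beta genes numbered 0, 0 and 0, and raised gamma genes 5 with DAC and 5 with OR-2100. With median scaling, induced genes numbered 3, 3 and 3 in the alpha, 7, 6 and 6 in the beta and 4, 4 and 6 in the gamma cluster. Without the level threshold they numbered 4, 5 and 5, 7, 8 and 8, and 6, 6 and 7. The induced genes were 37%, 41.3% and 43.5% of the members, against 14.1%, 14.8% and 13.5% of all named genes. This setting asks for no detection. Induced by all 3 drugs and well above background with each were 11 of 46 members, against 2633 of 25006 named genes. Also, 2 alpha genes were reduced with OR-2100, *PCDHA4* and *PCDHA13*, neither of them above background on any array. With a 4-fold threshold, raised genes numbered 0 in the alpha cluster with DAC and 1 and 1 in the gamma cluster with DAC and OR-2003. For raised genes, the shares of all named genes under the alternative settings are not given here. The same 9 genes were raised by all 3 drugs under both percentiles, median scaling, quantile normalization and the floor, and 5 of them with the 4-fold threshold, *PCDHA1*, *PCDHB5*, *PCDHB8* and *PCDHGB4* being lost. Low signal limits most of these values.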
